A study of Mus musculus with 9 samples.

Results

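Genomic imprinting is the expression of a gene mainly from the copy inherited from the mother, or mainly from the copy inherited from the father. Imprinted genes lie in clusters in which methylated DNA of parental origin sets the active copy, and many of them encode regulators of fetal growth and of precursor cells. In skeletal muscle precursors several are known to act on cell cycle exit and on signalling by insulin-like growth factors. The 10 genes described here are Peg3, Zim1, Peg10, Sgce, Dlk1, Meg3, Ndn, Grb10, Cdkn1c and Plagl1, which are imprinted genes outside the Igf2 locus. They were chosen by name after levels and calls of these same libraries were known, the values in view being the levels of single genes and their differences between the knockouts and WT. They were matched by symbol to the Ensembl identifiers of the table, and all 10 were found among its 47729 genes. Gene counts carry no information on parental copies, so every value below is the sum over both copies.

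RNA was measured in C2C12 cells, an established mouse myoblast line that fuses into myotubes in low serum. The control population (WT) had received Cas9 with a guide RNA that has no target, and in the other populations the clock gene Per1 (Per1KO) or Per2 (Per2KO) had been knocked out with CRISPR-Cas9. Each of the 3 populations was sampled in growth medium with fetal bovine serum (day 0) and on days 3 and 5 after the change to horse serum. Every population was sequenced 1 time on every day, giving 9 libraries. The labels do not say whether a knockout population is 1 clone, and they name whole muscle as the tissue although the growth protocol describes cell culture.

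The WT libraries held 5020385 to 6773320 counts and the knockout libraries 41997763 to 48051824, and only the WT titles carry a lane suffix. In every difference from WT, sequencing batch and genotype therefore cannot be told apart, and p-values speak of these populations alone. Levels are given as CPM, the count of a gene relative to its library's total after scaling by the trimmed mean of M values. Where a gene had 0 counts, the limit was set at 3 counts, equal to 0.424 to 0.660 CPM in WT and 0.0591 to 0.0731 CPM in the knockouts. Intervals are exact Clopper-Pearson 95% intervals and, like this floor, cover counting error only. All 6 myoblast markers examined (Myod1, Myf5, Des, Cdh15, Pax7 and Itga7) were detected in all 9 libraries. Blood markers summed to at most 0.22 CPM, endothelial markers to at most 0.433 and neural markers to at most 0.66. Adipocyte markers summed to 5.47 to 26.9 CPM and osteoblast markers to 30.7 to 70.7 CPM, with Adipoq and Ibsp among those at 0 in all libraries. The adipocyte marker Pparg and the osteoblast markers Runx2 and Dmp1 were high enough to be tested. Dmp1 was called lower than WT in Per1KO (log2 fold change -3.04 ± 0.43) and Per2KO (-2.98 ± 0.43), and Pparg and Runx2 were called in neither. Differentiated muscle markers (Myog, Mymk, Myh3, Ckm, Acta1 and Tnnt3) summed to 626 CPM in WT on day 0, against 33.5 in Per1KO and 15.7 in Per2KO. They summed to 16600, 6890 and 6220 CPM on day 3 and to 18300, 11400 and 8850 CPM on day 5 in the same order. In this sum the WT culture thus stood above the knockouts on all 3 days, already in growth medium. Averaged over the 3 days, only Myog of the 6 was called, lower in Per1KO (log2 fold change -2.80 ± 0.72) and Per2KO (-3.18 ± 0.73). The part of these differences in the results below was not tested. In such bulk samples, fewer cells of a type and less RNA per cell cannot be told apart. Of the targeted genes, Per1 stood on day 0 at 35.6, 20.9 and 16.5 CPM in WT, Per1KO and Per2KO, and Per2 at 9.74, 6.59 and 3.50 CPM. Over the 3 days, Per1 was called in neither knockout against WT, and Per2 was called lower in Per2KO (log2 fold change -1.02 ± 0.24, edgeR adjusted p = 0.0230) and not in Per1KO (-0.62 ± 0.24, adjusted p = 0.111). Set directly against each other, the knockouts did not differ past the threshold in either gene (adjusted p = 1 for both). Population names are those of the labels.

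The members form 3 pairs of neighbours and 4 genes in clusters of their own. Peg3 (ENSMUSG00000002265, chromosome 7, 6703892 to 6730431) and Zim1 (ENSMUSG00000002266, chromosome 7, 6671269 to 6696450) both lie on the minus strand of build GRCm38, with 33981 bases between their starts. Peg10 (ENSMUSG00000092035, chromosome 6, 4747306 to 4760517, plus strand) and Sgce (ENSMUSG00000004631, chromosome 6, 4674350 to 4747207, minus strand) are transcribed away from each other, with starts 99 bases apart. Dlk1 (ENSMUSG00000040856, chromosome 12, 109452823 to 109463336) and Meg3 (ENSMUSG00000021268, chromosome 12, 109541001 to 109571726) lie on the plus strand with starts 88178 bases apart. The promoter windows of the pair that was highest and of the pair that was not detected are given here, from 250 bases before to 50 bases after the RefSeq start on GRCm38.p6, 5′ to 3′ on the gene's strand. Capitals mark CG dinucleotides, the letters at which imprinted DNA methylation is placed. These libraries hold no methylation data.
Peg3 (chr7:6730370-6730669, minus strand): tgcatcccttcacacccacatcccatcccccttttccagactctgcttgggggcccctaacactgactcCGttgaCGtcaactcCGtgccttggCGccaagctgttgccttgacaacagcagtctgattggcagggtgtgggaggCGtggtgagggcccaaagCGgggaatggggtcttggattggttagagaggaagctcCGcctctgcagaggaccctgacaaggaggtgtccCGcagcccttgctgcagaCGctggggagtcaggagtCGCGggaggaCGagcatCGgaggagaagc
Zim1 (chr7:6696383-6696682, minus strand): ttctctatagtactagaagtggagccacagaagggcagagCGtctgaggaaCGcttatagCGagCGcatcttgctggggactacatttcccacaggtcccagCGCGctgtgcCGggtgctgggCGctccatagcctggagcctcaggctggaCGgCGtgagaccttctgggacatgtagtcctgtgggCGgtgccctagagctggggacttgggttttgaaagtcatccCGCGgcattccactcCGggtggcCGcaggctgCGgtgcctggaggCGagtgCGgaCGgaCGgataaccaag
Dlk1 (chr12:109452573-109452872, plus strand): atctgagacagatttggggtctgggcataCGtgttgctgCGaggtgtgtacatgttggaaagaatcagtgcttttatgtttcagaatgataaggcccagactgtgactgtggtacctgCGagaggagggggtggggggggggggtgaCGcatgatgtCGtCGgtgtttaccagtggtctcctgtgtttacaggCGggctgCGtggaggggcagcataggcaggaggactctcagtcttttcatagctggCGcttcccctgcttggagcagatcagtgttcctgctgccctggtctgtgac
Meg3, the first of its starts (chr12:109540746-109541045, plus strand): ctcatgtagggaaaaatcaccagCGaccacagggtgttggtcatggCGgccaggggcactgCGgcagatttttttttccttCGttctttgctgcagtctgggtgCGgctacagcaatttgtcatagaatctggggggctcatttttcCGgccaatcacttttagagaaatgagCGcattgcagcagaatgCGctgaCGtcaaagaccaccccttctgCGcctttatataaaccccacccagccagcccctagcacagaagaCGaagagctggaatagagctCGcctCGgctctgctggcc
The table of promoters held 7 of the 10 members, and not Peg10, Sgce or Cdkn1c. The Peg3 window held 13 CG dinucleotides, that of Zim1 20, that of Dlk1 9 and that of Meg3 13, against a median of 7 over 32851 windows of 300 bases. These 4 windows therefore lay above the median, though 45.8% of all windows held at least as many CG dinucleotides as that of Dlk1. The window of a second Meg3 start, not shown here, held 1. The hexamer TGCCGC, the letters that the imprint-maintaining protein ZFP57 binds when methylated, was searched on both strands and occurred 1 time in the windows of Zim1 and Meg3 and 0 times in those of Peg3 and Dlk1. It was present in 11.6% of all windows. The E-box CANNTG holds the core letters read by CLOCK, BMAL1 and the myogenic factors. This motif was present in 72.3% of all windows and in none of these 4, while the window of the second Meg3 start held 1. A match, or its absence, describes these letters in this window only.

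Peg3 was the most abundant member per kilobase of annotated exon in every library, at 20.1 to 52.4 CPM per kilobase. Here the length of a gene is that of all its annotated exons merged, which can exceed the length of the transcript present. Levels and ratios per kilobase depend on that choice. Zim1, Peg10 and Sgce followed with medians over the libraries of 5.60, 4.51 and 5.01 CPM per kilobase, and their ranges overlapped. The other members had medians of at most 0.171 CPM per kilobase, the value of Ndn. Cdkn1c reached 9.13 CPM per kilobase in 1 library, WT on day 3. Of the 10 genes, 6 reached 1 CPM in at least 3 libraries and were among the 13324 genes tested. These were Peg3, Zim1, Peg10, Sgce, Ndn and Grb10. Ndn passed this filter only through the 3 WT libraries, and Grb10 through WT on days 3 and 5 and Per1KO on day 5, so their passing depended on the groups in which they were high.

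**Figure D1:**
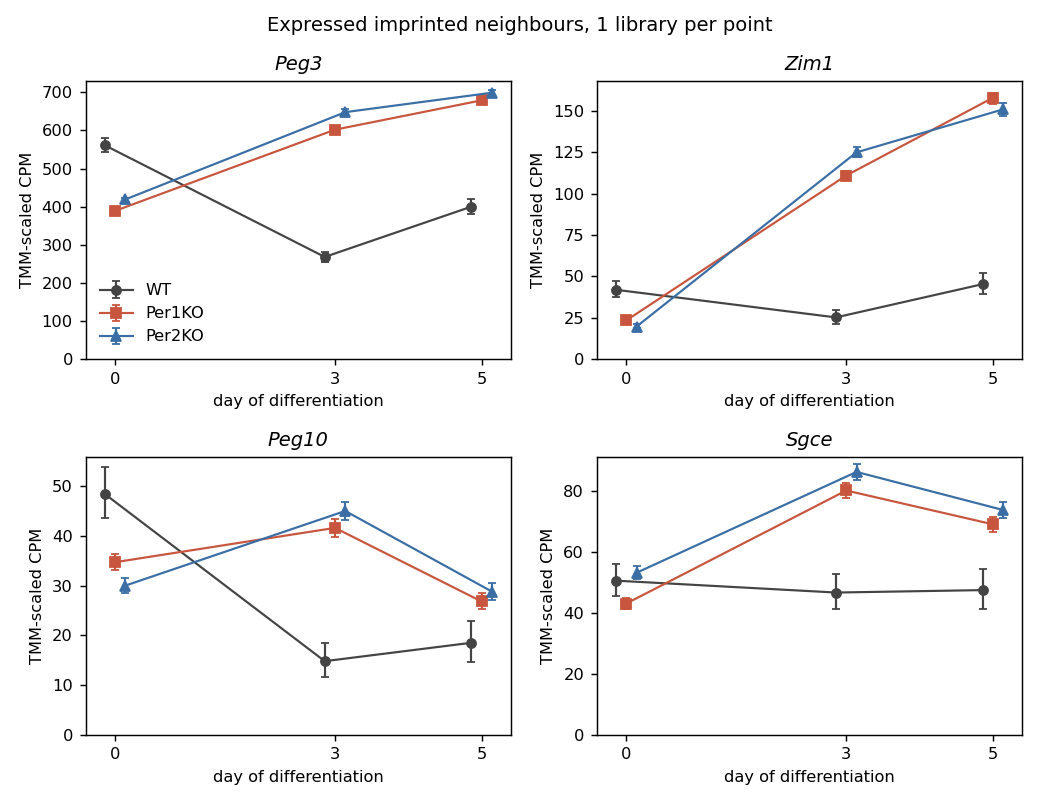
Levels of Peg3, Zim1, Peg10 and Sgce in TMM-scaled CPM (linear axes from 0) by day of differentiation, 1 point for each library with its 95% counting interval and 1 line for each population. The WT line starts above both knockout lines for Peg3, Zim1 and Peg10 on day 0 and lies below them on days 3 and 5 for all 4 genes.

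Peg3 encodes a zinc-finger protein expressed from the paternal copy and known for roles in growth and in stem cells of muscle. It stood at 561 CPM in WT on day 0 (interval 544 to 579), 268 on day 3 and 400 on day 5. In Per1KO it stood at 389, 602 and 679 CPM, and in Per2KO at 419, 648 and 699 CPM on the same days. WT was thus the highest population on day 0 and the lowest on days 3 and 5, while both knockouts had their lowest value on day 0. Relative to its own day 0, the level was 0.477-fold on day 3 and 0.712-fold on day 5 in WT, against 1.55-fold and 1.74-fold in Per1KO and 1.55-fold and 1.67-fold in Per2KO. These are ratios of single libraries and have no replicate check.

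Zim1 is a zinc-finger gene expressed from the maternal copy, and WT was again the highest population on day 0 and the lowest on days 3 and 5. It stood at 41.9, 25.2 and 45.3 CPM in WT on days 0, 3 and 5. Its level was 23.4, 111 and 158 CPM in Per1KO and 19.7, 125 and 151 CPM in Per2KO. On day 0 the knockouts were at 0.557 and 0.470 of the WT level, and on day 3 they were 4.41-fold and 4.97-fold above it. The 4 knockout libraries of days 3 and 5 lay above all 5 other libraries. Of the 31-mers of Zim1, 1.29% also occur in another gene, so few of its reads could belong elsewhere.

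Peg10, a gene derived from a retrotransposon and expressed from the paternal copy, stood at 48.4, 14.8 and 18.5 CPM in WT on days 0, 3 and 5. It stood at 34.7, 41.6 and 26.8 CPM in Per1KO and at 30.0, 45.0 and 28.8 CPM in Per2KO. Both knockouts peaked on day 3, the day on which WT had its lowest value, and the knockouts were then 2.81-fold and 3.04-fold above WT. Sgce encodes epsilon-sarcoglycan, a membrane protein of the dystrophin-associated complex, and is expressed from the paternal copy. It was level in WT, at 50.6, 46.7 and 47.5 CPM with overlapping intervals. In Per1KO it stood at 43.1, 80.2 and 69.1 CPM, and in Per2KO at 53.2, 86.3 and 73.8 CPM. On day 0 the WT value lay between the knockouts, and on days 3 and 5 it lay below both.

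The opposite courses were tested as a response to differentiation, which is the change from day 0 to days 3 and 5 in both knockouts together minus the same change in WT. It was fitted for all 13324 genes with edgeR's quasi-likelihood test and Benjamini-Hochberg adjustment over all of them, with 3 residual degrees of freedom. Of the 6 tested members, 3 passed an adjusted p-value of 0.05 in the direction higher in the knockouts, where 3.50% of all tested genes passed, and 0 passed in the direction lower, where 1.45% did. Zim1 had a log2 response of 2.95 ± 0.25 (SE, adjusted p = 0.00473), Peg3 of 1.47 ± 0.21 (adjusted p = 0.0150) and Peg10 of 1.65 ± 0.35 (adjusted p = 0.0446). Sgce, at 0.79 ± 0.19 (adjusted p = 0.0608), and Ndn, at 1.54 ± 0.81 (adjusted p = 0.302), did not pass. For Grb10 no response could be estimated, since it had 0 counts in every day-0 library. The median response of all tested genes was 0.01 on the log2 scale. Ndn entered this fit only through the WT libraries, so nothing is read from its value. The differences between the knockouts and WT on single days were known when the members were chosen, and the response is built from the same libraries, so it is not independent evidence. It also rests on 1 WT library of day 0, which cannot be left out of the fit. All 6 differentiated muscle markers passed as well, higher in the knockouts (edgeR adjusted p = 0.00359 to 0.0142). Their log2 responses were 5.27 for Myh3, 4.965 for Ckm, 4.10 for Acta1, 3.14 for Myog, 2.83 for Mymk and 2.65 for Tnnt3. The part of the WT day-0 culture in these values was not tested. Zim1 passed without each of the other 8 libraries in turn (2.73 to 3.19). Peg3 did not pass without Per1KO on day 0 (1.46, adjusted p = 0.0670), without Per2KO on day 0 (1.49, adjusted p = 0.0958) or without Per2KO on day 3 (1.43, adjusted p = 0.0623). Peg10 did not pass when any 1 of the 6 knockout libraries was left out, with adjusted p-values of 0.0575 to 0.171, and its estimate ran from 1.17 to 2.13 over the 8 fits. Sgce passed with DESeq2's Wald test (0.77, adjusted p = 0.0158) and without WT on day 5 (0.91, adjusted p = 0.0226). In these fits 11% and 16.6% of all tested genes were called in either direction, against 4.95% in the main fit. The 3 fits in which Peg3 did not pass called 2.36%, 0.371% and 1.15% of all tested genes, in the order given above.

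**Figure D2:**
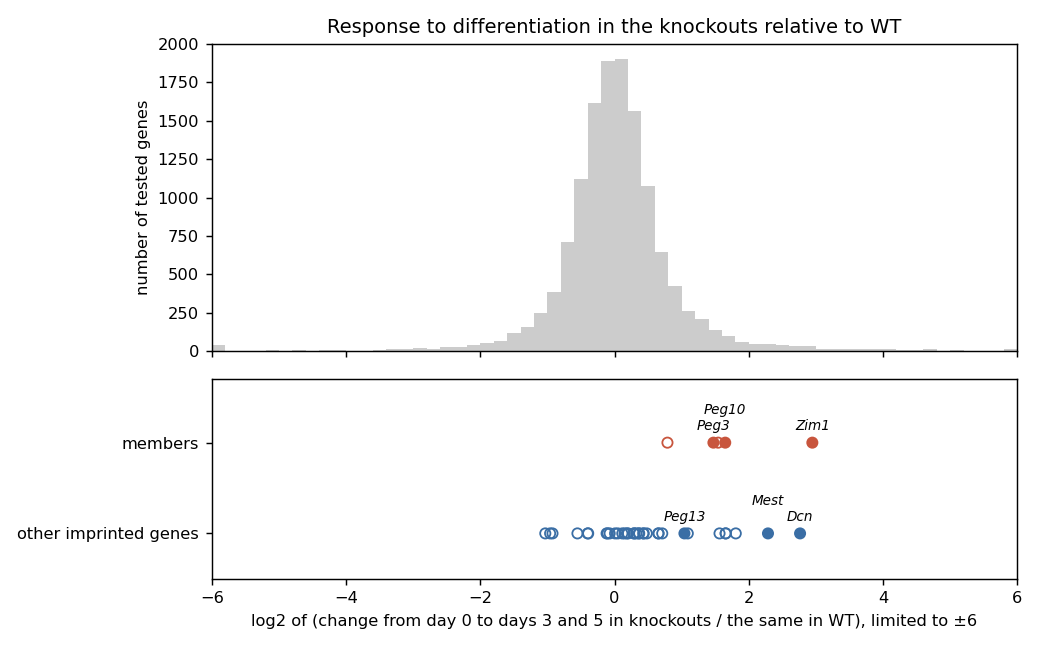
Log2 response to differentiation, knockouts minus WT (horizontal axis), as a histogram of the number of tested genes above, and below as 1 point for each tested member with an estimate and each tested other imprinted gene, filled where the adjusted p is under 0.05, with values past the axis in the outermost bins. Zim1 at 2.95, Peg10 at 1.65 and Peg3 at 1.47 are the filled members, and Dcn, Mest and Peg13 the filled other genes.

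Whether neighbours of a cluster changed by equal amounts was examined in their count ratio, in which library size cancels. Per kilobase, Peg3 stood at 8.11, 6.43 and 5.34 times Zim1 in WT on days 0, 3 and 5. The ratio was 10.1, 3.29 and 2.62 in Per1KO and 12.9, 3.14 and 2.81 in Per2KO. It was highest on day 0 in all 3 populations. Its log2 value moved by -1.45 on average from day 0 to the mean of days 3 and 5, by -0.47 in WT, -1.78 in Per1KO and -2.12 in Per2KO (exact permutation test over the days within populations, two-sided p = 0.037, the smallest that its 27 arrangements allow). Peg10 stood at 1.53, 0.506 and 0.621 times Sgce per kilobase in WT, at 1.28, 0.825 and 0.619 in Per1KO and at 0.899, 0.830 and 0.622 in Per2KO. This ratio too was highest on day 0 in every population, and on day 5 it lay between 0.619 and 0.622 in all 3. Its log2 value moved by -0.87 on average, by -1.44 in WT, -0.84 in Per1KO and -0.32 in Per2KO (exact permutation test, two-sided p = 0.037). Both pairs had a Benjamini-Hochberg adjusted p of 0.037 over the 2 pairs that could be tested. The levels that make up these ratios were in view when the genes were chosen, so these p-values are not independent of that choice. With the knockouts thinned to WT depth, the Peg10 to Sgce change was -0.88 with an exact permutation p of 0.0741. The starts of Peg10 and Sgce lie 99 bases apart, and their log2 levels over the 9 libraries had a Pearson r of 0.453, against 0.857 for Peg3 and Zim1. These correlations describe 9 libraries that share populations and days.

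**Figure D3:**
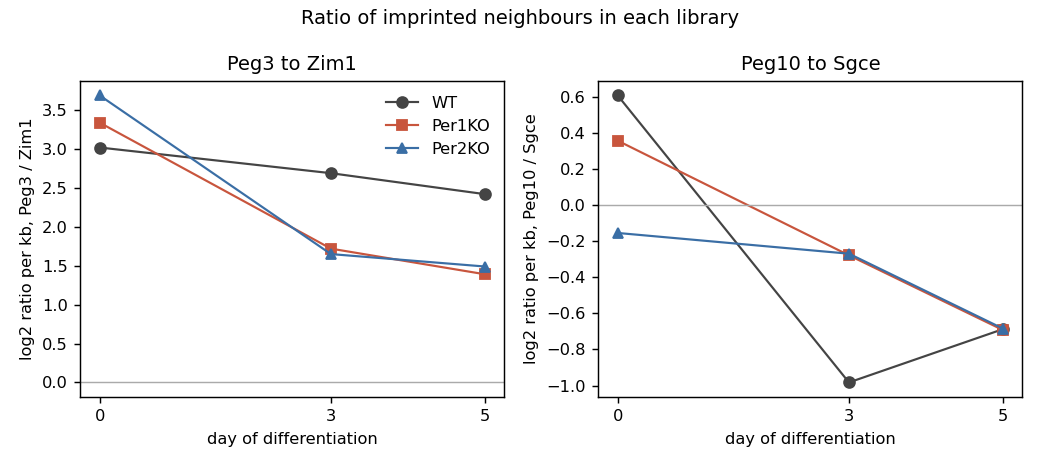
Log2 ratio of the per-kilobase levels of neighbouring genes by day, Peg3 to Zim1 and Peg10 to Sgce, 1 point for each library and 1 line for each population, with a grey line at equal levels. Peg3 to Zim1 runs from 3.02 to 3.69 on day 0 and from 1.39 to 2.42 on day 5, and the Peg10 to Sgce points of the 3 populations meet on day 5.

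For Dlk1 and Meg3 no ratio was computed. Dlk1 encodes a Notch-family ligand expressed from the paternal copy, and Meg3 is a long noncoding RNA expressed from the maternal copy. Dlk1 had 0 counts in all 9 libraries, which allows up to 0.660 CPM in the shallowest WT library and 0.0731 CPM in the shallowest knockout library. Meg3 had 1 count, in WT on day 5 (0.220 CPM, interval 0.00557 to 1.23), and 0 in the other 8 libraries. Neither gene was detectable at this depth above the floor in any population or on any day. The exons of Meg3 overlap the microRNA gene Mir770 on the same strand and the gene model Gm26906 on the opposite strand, so even that count is uncertain in origin. The other genes of the domain were as low: summed over the 9 libraries, Rtl1 had 1 count, Rian 3, Mirg 2, Begain 7 and Dio3 0.

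Ndn (ENSMUSG00000033585, chromosome 7, 62346569 to 62350262, plus strand) encodes necdin, a growth-suppressing protein of the MAGE family expressed from the paternal copy. It stood at 2.68 CPM in WT on day 0 (19 counts, interval 1.62 to 4.19), 3.47 on day 3 (19 counts) and 1.32 on day 5 (6 counts). In Per1KO it stood at 0.203, 0.497 and 0.721 CPM (10, 24 and 30 counts), and in Per2KO at 0.197, 0.373 and 0.633 CPM (10, 18 and 26 counts). All 6 knockout libraries lay below all 3 WT libraries. The ratio of WT to Per1KO was 13.2 on day 0 (interval 5.85 to 31.9), 6.98 on day 3 (3.61 to 13.3) and 1.83 on day 5 (0.623 to 4.47), so the day-5 interval includes equal levels. The ratio of WT to Per2KO was 13.6, 9.30 and 2.08 on these days, again with a day-5 interval that includes equal levels (0.701 to 5.18).

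Grb10 (ENSMUSG00000020176, chromosome 11, 11930508 to 12038683, minus strand) encodes an adaptor protein that restrains insulin and insulin-like growth factor receptors, expressed from the maternal copy in most tissues. It had 0 counts on day 0 in all 3 populations. In WT it stood at 2.74 CPM on day 3 and 3.30 on day 5 (15 counts each). It stood at 0.331 and 1.27 CPM in Per1KO (16 and 53 counts) and at 0.538 and 0.536 CPM in Per2KO (26 and 22 counts). Every library of days 3 and 5 thus held the transcript and no library of day 0 did. The level of Grb10 divided by the floor of 3 counts in the day-0 library of its population was 6.46 on day 3 and 7.79 on day 5 in WT. It was 5.44 and 20.9 in Per1KO, and 9.11 and 9.07 in Per2KO. These values leave out the counting error of the later library. WT exceeded Per1KO 8.26-fold on day 3 (interval 3.80 to 17.8) and 2.59-fold on day 5 (1.36 to 4.67), and exceeded Per2KO 5.08-fold (2.50 to 9.96) and 6.15-fold (2.97 to 12.4).

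Cdkn1c (ENSMUSG00000037664, chromosome 7, 143458339 to 143461050, minus strand) encodes the cyclin-dependent kinase inhibitor p57, expressed from the maternal copy and known for cell cycle exit in muscle. In WT it stood at 0.565 CPM on day 0 (4 counts), 18.6 on day 3 (102 counts, interval 15.2 to 22.6) and 1.54 on day 5 (7 counts). It had 1, 4 and 5 counts in Per1KO and 10, 7 and 2 in Per2KO, none above 0.197 CPM. A single library, WT on day 3, held 102 of the 142 counts of this gene. Within WT, day 3 was 32.9-fold above day 0 (interval 12.5 to 123) and 12.1-fold above day 5 (5.66 to 30.8). On day 3 WT was 225-fold above Per1KO (85.1 to 840) and 128-fold above Per2KO (60.1 to 327). The ratio of WT to Per1KO was 27.9 on day 0 (2.76 to 1370) and 12.8 on day 5 (3.5 to 51.2). That of WT to Per2KO was 2.87 on day 0 (0.657 to 9.95, including equal levels) and 31.6 on day 5 (6.02 to 312). These day-0 and day-5 ratios rest on at most 10 counts per library. Cdkn1c did not reach 1 CPM in 3 libraries and was not tested. With no filter on low counts, it was called in both knockouts against WT (edgeR adjusted p = 0.0294 in Per1KO and 0.0457 in Per2KO). In these fits 10.7% of all genes were called in Per1KO and 10.9% in Per2KO. How far these calls rest on WT on day 3 was not tested, so nothing is read from them. With 1 library behind the peak there is no replicate check. The gene model Gm44732 overlaps its exon on the opposite strand, and whether counting used strand is not given in the sources used here.

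Plagl1 (ENSMUSG00000019817, chromosome 10, 13060504 to 13131694, plus strand) encodes a zinc-finger transcription factor that arrests growth, expressed from the paternal copy. It had 1, 2 and 0 counts in WT on days 0, 3 and 5, 16, 11 and 5 in Per1KO and 17, 8 and 5 in Per2KO. In CPM the knockouts ran from 0.324 to 0.120 in Per1KO and from 0.335 to 0.122 in Per2KO, with overlapping intervals between day 0 and day 5 in each. The WT intervals reach up to 1.32 CPM, so no difference between WT and the knockouts was detectable at this depth.

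**Figure D4:**
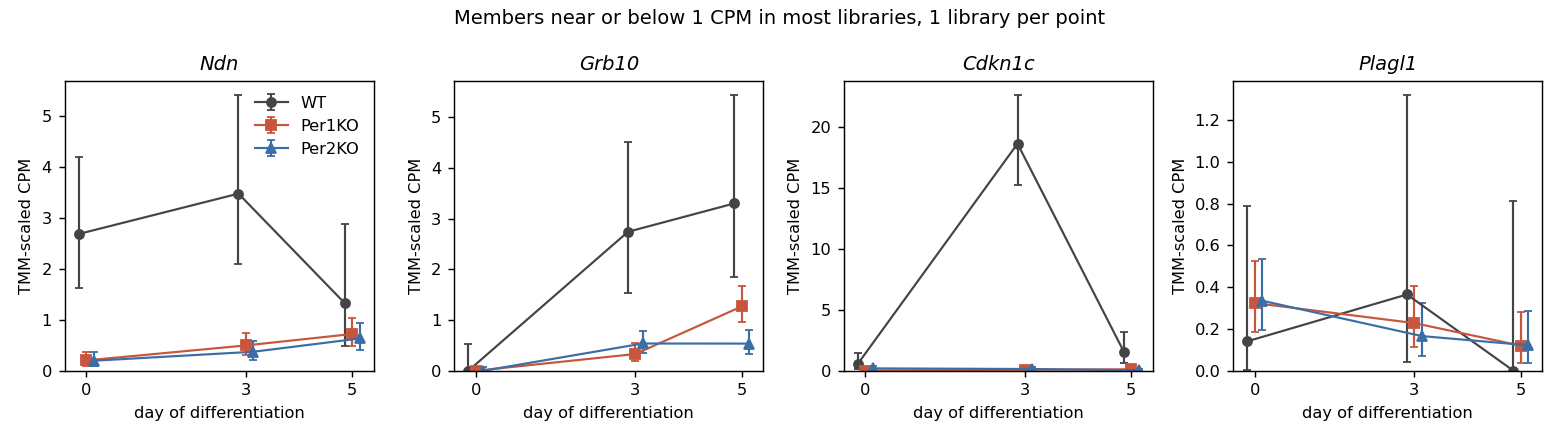
Levels of Ndn, Grb10, Cdkn1c and Plagl1 in CPM by day, 1 point for each library with its 95% counting interval and 1 line for each population. WT lies above both knockouts for Ndn on all 3 days and for Grb10 on days 3 and 5, and Cdkn1c has a single peak of 18.6 CPM in WT on day 3.

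Averaged over the 3 days in an additive model of population and day, the differences from WT were as follows, given as a description because such differences were in view when the genes were chosen. In Per1KO, 0 of the 6 tested members were called higher and 1 lower, where 9.26% and 10.1% of all tested genes were called. The member called lower was Ndn, with a log2 fold change of -2.58 ± 0.53 (SE). In Per2KO, 0 were called higher and 2 lower, where 9.31% and 10.6% of all genes were called. These were Ndn at -2.81 ± 0.54 and Grb10 at -2.44 ± 0.62, and in Per1KO Grb10 was at -2.04 ± 0.60 without being called. Ndn entered the test only through the WT libraries, and Grb10 through 2 WT libraries and 1 of Per1KO, so nothing is read from these calls. The 4 other tested members were called in neither direction. Peg3 was at 0.41 ± 0.33 in Per1KO and 0.50 ± 0.33 in Per2KO, Zim1 at 0.83 ± 0.64 and 0.83 ± 0.65, Peg10 at 0.38 ± 0.39 and 0.40 ± 0.39, and Sgce at 0.35 ± 0.19 and 0.51 ± 0.19. Without the WT library of day 0 all 4 of these were called higher in both knockouts, together with Grb10 lower, with log2 fold changes in Per1KO and Per2KO of 0.95 and 1.04 for Peg3, 1.999 and 1.961 for Zim1, 1.06 and 1.06 for Peg10, and 0.62 and 0.79 for Sgce. In that fit 26.4% of all tested genes were called in either direction in Per1KO and 27.4% in Per2KO, against 19.3% and 19.9% with all libraries. Ndn could not be tested without any 1 of the WT libraries. Its call in Per1KO was also lost without Per1KO on day 0 (-2.29) or day 3 (-2.57), and its call in Per2KO without Per2KO on day 3 (-2.66). Grb10 kept its call in Per2KO without Per1KO on day 3 and without WT on day 0, and was not called without any of the other 7 libraries. The knockouts share their WT libraries, so their values are set side by side and not compared for likeness. Set directly against each other, Per1KO and Per2KO differed in 0 of the 6 members and in 0 of 13324 genes (0% called) by edgeR. At an unadjusted p under 0.05 there were 0 members and 88 genes, and DESeq2 called 0 members and 1 gene.

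Differentiation itself, averaged over the 3 populations, was called for 1 of the 6 tested members, Grb10, higher on day 3 and on day 5 than on day 0. Of all tested genes, 18.1% were called higher and 16.9% lower on day 3, and 23.2% higher and 22.9% lower on day 5. Grb10 entered the test only through libraries of days 3 and 5, so nothing is read from its call. Without WT on day 3, WT on day 5 or Per1KO on day 5, Grb10 no longer reached the minimum for testing on either day. Without WT on day 0, Peg3, Zim1 and Sgce were called higher as well on both days, while the share of all tested genes called in either direction was 47.6% on day 3 and 56% on day 5, against 35% and 46.1% with all libraries. Sgce was also called on day 3 without WT on day 3, and Zim1 on day 5 without WT on day 3 or without WT on day 5. Zim1 had a log2 fold change of 1.37 ± 0.65 on day 3 (adjusted p = 0.142) and 1.83 ± 0.65 on day 5 (adjusted p = 0.0519). Peg3 was at 0.04 ± 0.33 and 0.29 ± 0.32 (adjusted p = 0.937 and 0.490), and Peg10 at -0.20 ± 0.38 and -0.64 ± 0.38 (adjusted p = 0.702 and 0.201). Sgce was at 0.50 ± 0.19 and 0.35 ± 0.19 (adjusted p = 0.0726 and 0.163). Ndn was at 0.78 ± 0.52 and 0.98 ± 0.52 (adjusted p = 0.276 and 0.157). From day 0 to day 3 Peg3, Zim1 and Peg10 went down in WT and up in both knockouts. Sgce was level in WT and went up in both knockouts. For these genes the averages over populations therefore join unlike courses. Between days 3 and 5, 1.79% of all genes were called in either direction by edgeR and 0 of the 6 members. At an unadjusted p under 0.05 there were 0 members and 1975 of the 13324 tested genes.

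For each tested member the gene with the most similar course over the 9 libraries was found by the Pearson correlation of log2 CPM, as a description of libraries that share populations, days and depth. Zim1 was most like Iqcd (r = 0.991), and among imprinted genes most like Casd1 (r = 0.969), which lies in the Peg10 and Sgce cluster. Peg3 was most like Aplp2 (r = 0.982), and among imprinted genes like its neighbour Zim1. Peg10 was most like Kirrel (r = 0.982) and then, among imprinted genes, Inpp5f (r = 0.712). Sgce was most like Nptn (r = 0.975), and among imprinted genes like Casd1 (r = 0.897) rather than its neighbour Peg10. Ndn was most like Dnpep (r = 0.981) and among imprinted genes Ddc (r = 0.793), and Grb10 was most like Mboat2 (r = 0.990) and among imprinted genes Tspan32 (r = 0.954). For the low counts of Ndn and Grb10 these values follow few reads. Each named gene is the highest of 13323, and 65 genes had an r above 0.95 with Zim1 and 160 with Grb10. That number was 10 for Peg3, 5 for Peg10, 11 for Sgce and 16 for Ndn.

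As the surrounding set, 68 other genes reported as imprinted in mouse were listed, several of them only in placenta. The table held 65 of them, 10 had 0 counts in all 9 libraries and 34 were tested. In Per1KO 2 of the 34 were called higher than WT and 2 lower, and in Per2KO 2 were called higher and 3 lower. Commd1, a regulator of copper transport and NF-kappaB, was higher in both (0.74 ± 0.15 and 0.83 ± 0.15), as was Pon2, a paraoxonase of the Peg10 and Sgce cluster (0.46 ± 0.12 and 0.45 ± 0.12). Ddc, the neighbour of Grb10 that encodes aromatic amino acid decarboxylase, was lower in both (-2.44 ± 0.49 and -2.37 ± 0.49), as was Tspan32, a tetraspanin (-0.82 ± 0.20 and -0.9996 ± 0.2021). Of all tested genes, 9.26% and 10.1% were called in Per1KO and 9.31% and 10.6% in Per2KO. On day 3, 13 of the 34 were called higher than on day 0 and 0 lower, and on day 5, 13 were called higher and 2 lower. Over all tested genes the shares were 18.1% higher and 16.9% lower on day 3, and 23.2% and 22.9% on day 5. Their median log2 fold change was 0.33 on day 3 and 0.30 on day 5, against -0.01 over all tested genes on both days. The largest rises on day 5 were those of Dcn, which encodes the matrix proteoglycan decorin (5.25 ± 0.71, adjusted p = 9.02e-04), Ddc (3.59 ± 0.54, adjusted p = 0.00122) and Tspan32 (3.41 ± 0.21, adjusted p = 2.27e-05). The genes called lower were Inpp5f, a phosphoinositide phosphatase (-0.60 ± 0.13, adjusted p = 0.00658), and Peg12 (-0.97 ± 0.27, adjusted p = 0.0206).

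In the response to differentiation, 3 of the 34 were called higher in the knockouts and 0 lower, where 3.50% and 1.45% of all tested genes were called, with a median response of 0.31 against 0.01 over all tested genes. Dcn had a response of 2.76 ± 0.35 (adjusted p = 0.0119), with levels of 51.5, 540 and 603 CPM in WT, 6.57, 679 and 728 in Per1KO and 13.7, 711 and 814 in Per2KO. Its populations lay furthest apart on day 0, with the knockouts below WT. Mest, a hydrolase gene expressed from the paternal copy, had a response of 2.29 ± 0.38 (adjusted p = 0.0235), with 15.4, 10.4 and 4.62 CPM in WT, 9.71, 24.7 and 11.7 in Per1KO and 6.42, 25.0 and 14.2 in Per2KO. This is the crossing course of Peg3 and Zim1, with WT highest on day 0 and lowest on days 3 and 5. Peg13, a noncoding RNA, had a response of 1.04 ± 0.20 (adjusted p = 0.0329), with 42.1, 25.4 and 25.7 CPM in WT against 22.3, 24.2 and 27.8 in Per1KO and 18.3, 23.5 and 26.0 in Per2KO. Its populations differed on day 0 and lay close together later. Usp29, which shares the Peg3 promoter region, stood at 7.20, 2.92 and 2.86 CPM in WT, 6.96, 6.77 and 11 in Per1KO and 6.40, 7.93 and 8.60 in Per2KO. Its response of 1.66 ± 0.38 (adjusted p = 0.0552) did not pass. The choice of these 4 genes was made with their values in view.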

How the data were processed

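Raw read counts per Ensembl gene were taken as deposited (47729 genes, 9 columns, 0 lines without a gene). Per the labels' protocols, TruSeq libraries of polyadenylated RNA were sequenced as single reads. The submitters' processing notes name CASAVA 1.8, HISAT2 2.1.0 and mm10. The counting program, its annotation, its use of strand and its treatment of reads matching several genes are not given in the sources used here. Symbols, positions and lengths of merged exons came from GENCODE M21 on GRCm38, and promoters from RefSeq. The members and gene lists were chosen with earlier results of these data known. Genes that reached 1 CPM in 3 or more libraries were tested with edgeR 4.0.16 (R 4.3.3), TMM scaling and the quasi-likelihood test with Benjamini-Hochberg adjustment over 13324 genes, in an additive model of population and day (4 residual degrees of freedom) or with a term for knockout and days 3 and 5 (3 residual degrees of freedom). The script was tested on simulated data. With 1 library per population and day, days stand in for replicates of a population and populations for replicates of a day. DESeq2 1.42.0 was an alternative, with other filters, thinning of the knockouts to 5855229 counts, fits to the libraries compared and leaving out each library. Named genes were the members, the gene most like each in course, other imprinted genes called alike in both knockouts or largest in change on day 5, Per1, Per2 and the markers. Ratios of single low counts carry exact 95% intervals.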

Additional observations from a re-analysis of the deposited data

Results flagged for a closer look

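The change from day 0 to days 3 and 5 was compared between the knockouts and WT in an interaction test over all genes. It differed for 3 of the 6 tested members and 3 of the 34 tested other imprinted genes. Of all tested genes, 3.50% passed higher in the knockouts and 1.45% lower. Peg3 differed by 1.47, Zim1 by 2.95 and Peg10 by 1.65 on the log2 scale, each higher in the knockouts. Among the other imprinted genes, Dcn differed by 2.76, Mest by 2.29 and Peg13 by 1.04 in the same direction. All 6 differences rest on the same WT library of day 0, and in them a batch of sequencing and the genotype cannot be told apart. Differences between the knockouts and WT were in view when the members were chosen, so the calls are not independent evidence. Of the 8 fits with 1 library left out, Zim1 passed in all, Peg3 did not pass in 3 and Peg10 did not pass in 6. Groups held 1 library each, so no sample could be examined as an outlier of its group.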

How the results depend on the processing

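No paired analysis was possible because the labels give no replicate numbers that could form a block; day and population, by which the libraries match, are terms of the model itself. The number of members called against WT was 1 for Per1KO, with 2 by DESeq2 (25.5% of all tested genes), 3 with no filter on low counts (10.7%; Cdkn1c, Grb10 and Ndn) and 0 at a minimum of 10 CPM (15.8%). It was 2 for Per2KO, with 4 with no filter (10.9%; Cdkn1c, Grb10, Ndn and Sgce), 0 at 10 CPM (17.2%), 1 with the knockouts thinned to WT depth (16.3%) and 1 with only the libraries compared (9.43%). On day 3 it was 1, with 0 at 10 CPM (34.9%) and 0 with only the libraries compared (23%), and on day 5 it was 1, with 2 by DESeq2 (49.3%), 0 at 10 CPM (46.8%) and 0 with only the libraries compared (39.8%). At 10 CPM only Peg3, Zim1, Peg10 and Sgce were tested. Leaving out each library in turn gave 0 to 5 members for each knockout, 0 to 4 for day 3 and for day 5, and 1 to 4 for the response. Over all tested genes those fits called 8.79% to 26.4% for Per1KO, 8.71% to 27.4% for Per2KO, 16.2% to 47.6% for day 3, 28% to 56% for day 5 and 0.371% to 16.6% for the response. The mean log2 ratio change without each population ran from -1.95 to -1.13 for Peg3 to Zim1 and from -1.14 to -0.58 for Peg10 to Sgce, where 9 arrangements allow no p-value under 0.111. Without WT the exact permutation p of Peg10 to Sgce was 0.222, above that limit. Thinning gave -0.88 for Peg10 to Sgce (exact permutation p = 0.0741). Without single libraries, estimates that were never called in the full set changed sign: Peg10 ran from -0.097 to 1.06 in Per1KO, from -0.083 to 1.06 in Per2KO and from -0.56 to 0.31 on day 3, and Peg3 from -0.23 to 0.56 on day 3. The cause was not tested. With totals left unscaled, 13 of 90 levels fell outside their counting intervals. Depth limits Dlk1, Meg3 and Plagl1 in WT most, where 3 counts are 0.424 to 0.660 CPM. The planned search of the Peg3 and Zim1 proteins for zinc fingers was not run.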
